A study of Mus musculus with 12 samples.

Results

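Glucagon and insulin act on the liver through a small set of receptors, adaptors and transcription factors, and 10 genes of these 2 pathways were followed here: Gcgr, Insr, Irs1, Irs2, Igfbp1, Ppargc1a, Creb3l3, Foxo1, Sik1 and Crtc2. They were chosen by name, with earlier results of these data known, out of 46078 genes in the count table, and all 10 passed the filter on low counts that left 13054 genes for testing. RNA came from the livers of male C57BL/6 mice (C57BL/6J in the methods of the study) aged 21 weeks, all of them made obese with a high fat diet, which the control mice had also eaten. One group had a sham operation and ate freely (Sham-Ad lib), one had a sham operation and was then food restricted until its weight matched that of the sleeve gastrectomy mice (Sham-WM), and one had vertical sleeve gastrectomy (VSG), with 4 mice in each. All mice were culled after a short period without food, so the levels are those of a briefly fasted liver.

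Glucagon binds its receptor GCGR on hepatocytes, which raises cAMP and activates protein kinase A and the factor CREB. CRTC2 is the coactivator that joins CREB when it is dephosphorylated, SIK1 is the kinase that is itself induced by cAMP and holds CRTC2 in the cytoplasm, and PGC-1 alpha (Ppargc1a) and CREB-H (Creb3l3) carry the fasting response on to glucose and lipid genes. Insulin acts in the opposite sense through its receptor INSR, the adaptors IRS1 and IRS2, and AKT, which drives FOXO1 out of the nucleus. FOXO1 in turn raises Igfbp1, Irs2, Insr and G6pc, so that several of these genes are both parts and targets of insulin signalling.

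Between 15122520 and 19384076 counts were assigned to genes in each library, and levels are given as CPM (counts scaled to the size of the library) after TMM scaling, which corrects for differences in library make-up. Albumin and the other hepatocyte markers were high in every library, with a summed level of at least 69680 CPM, and of 5 pancreatic markers Gcg, Ins2, Cpa1 and Pnlip were at 0 counts throughout, while the fifth, Ctrb1, reached 0.171 CPM in 1 VSG library. Ins1 was also at 0. Libraries are named by animal (11F, for example), and the group was taken from the animal number that the title and the library name share. The description field of the labels pairs titles with other libraries, and under that pairing no gene passed the threshold in any of the 3 comparisons (465, 715 and 158 genes at an unadjusted p under 0.05). The S numbers that end the column names of the libraries form 1 block per group. The labels do not say what they stand for, and any effect that goes with them cannot be told apart from that of treatment.

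Libraries also stood apart along transcript length. Relative to the mean of all 12 libraries, the VSG libraries 11F and 1F had low values for long transcripts and high values for short ones, with a Spearman rho over 13017 genes of -0.519 and -0.295, while the Sham-WM library 15F was the most opposite at 0.315. Over the same genes, the fold changes of VSG against Sham-Ad lib ran against transcript length with a rho of -0.383, those of VSG against Sham-WM with -0.321, and those of Sham-WM against Sham-Ad lib with 0.0761. The median log2 fold change of VSG against Sham-WM was 0.29 in the shortest 20% of transcripts and -0.22 in the longest 20%. This bears on the members, because Insr, Irs1 and Foxo1 have some of the longest transcripts of the genes tested (percentiles 96.9, 96.7 and 95.9), and Ppargc1a and Irs2 follow at 88.8 and 88. Values with the length trend removed within each library are therefore given beside the results of these 5 genes and of Gcgr.

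The stretches of sequence just before the RefSeq start of Igfbp1, Irs1 and Irs2 are shown because these 3 members hold the letters of an insulin response sequence there, the element through which insulin is known to silence Igfbp1. They are 150 bases long, read 5′ to 3′ on the strand of the gene from RefSeq on GRCm38.p6, at chr11:7197637-7197786 (plus strand), chr1:82291440-82291589 (minus strand) and chr8:11008930-11009079 (minus strand). Capitals mark the insulin response letters TGTTTTG or TATTTTG, or the short CRE letters TGACG, on either strand.
Igfbp1: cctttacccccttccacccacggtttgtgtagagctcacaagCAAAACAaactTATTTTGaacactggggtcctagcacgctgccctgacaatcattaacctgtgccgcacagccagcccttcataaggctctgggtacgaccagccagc
Irs1: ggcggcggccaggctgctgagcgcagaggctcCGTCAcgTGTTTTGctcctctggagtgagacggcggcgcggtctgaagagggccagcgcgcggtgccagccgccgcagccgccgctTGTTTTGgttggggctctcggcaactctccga
Irs2: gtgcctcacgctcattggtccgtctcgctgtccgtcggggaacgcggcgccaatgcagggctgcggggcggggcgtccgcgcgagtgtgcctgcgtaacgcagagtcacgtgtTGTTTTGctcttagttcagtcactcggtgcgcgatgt

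In the Igfbp1 stretch, TATTTTG lies 97 bases before the start, with TGTTTTG on the opposite strand just upstream of it. Irs1 has TGTTTTG at 32 bases before its start and a second copy further up, beside a CRE site of the short form at 118 on the opposite strand, and Irs2 has TGTTTTG at 37 bases. Distances are from the RefSeq start. For Irs2 that start lies upstream of the gene as placed by GENCODE M21 (10984681 to 11008458, minus strand). Its stretch therefore does not adjoin the GENCODE start. RefSeq windows from 250 bases before to 50 after the start were found for 7 of the 10 members, with a pair of windows for Creb3l3, and none was at hand for Insr, Sik1 and Crtc2. Of these 8 windows, 4 held TGTTTTG (those 3 and the downstream window of Creb3l3), 1 held TATTTTG, and 3 held TGACG (Irs1, Ppargc1a and Creb3l3). Among 32544 mouse windows of the same length, TGTTTTG was found in 6.32%, TATTTTG in 4.37% and TGACG in 20.9%. The FOXO site GTAAACA and the full palindromic CRE, which contains TGACG, are in 3.66% and 1.8% of windows and in none of the 8. A match of letters is a description of the sequence and not a measured binding site.

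Per kilobase of exon, the scale on which genes can be compared, mRNA of the glucagon receptor was more abundant than that of the insulin receptor. The length used was that of all annotated exons of a gene joined. This was 13746 bases for Insr and 4094 for Crtc2, whose longest transcripts have 9355 and 2992. The order of Crtc2 and Foxo1 depends on this choice, and the distance between Gcgr and Insr would be smaller by transcript length. In Sham-Ad lib livers, Creb3l3 was highest at 112.03 ± 12.4 CPM per kilobase and Gcgr next at 76.9 ± 2.34, followed by Igfbp1 at 21.6 ± 12.1 and Insr at 13.6 ± 1.58 (mean ± SD, n = 4). Foxo1 (8.52 ± 0.676) and Crtc2 (7.00 ± 0.363) formed the next step, then Sik1 (2.75 ± 1.36), Irs2 (2.24 ± 0.565) and Ppargc1a (2.13 ± 0.658), and Irs1 was lowest at 0.865 ± 0.248. Igfbp1 and Insr, and Sik1, Irs2 and Ppargc1a, did not differ beyond their spread. The first 4 genes kept this order in all 3 groups, and Irs1 was lowest in each. In Sham-WM livers, Sik1 (6.37 ± 3.46) lay with Crtc2 (6.38 ± 0.965) and Foxo1 (6.07 ± 1.43), and Irs1 (1.47 ± 0.625) lay within the spread of Irs2 (1.59 ± 0.757).

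**Figure D1:**
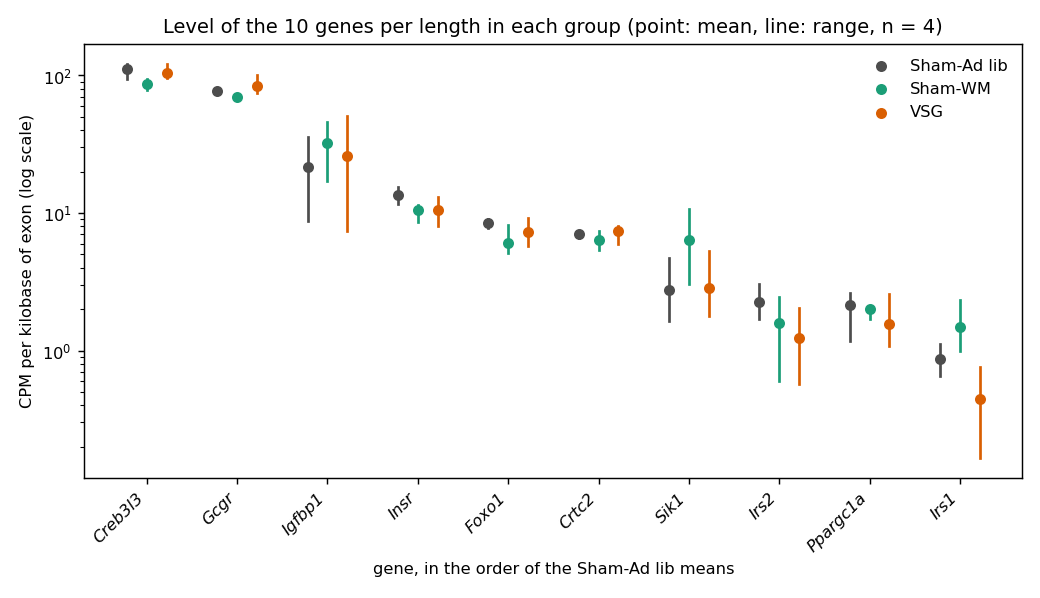
Level of the 10 genes in CPM per kilobase of exon on a log axis, in the order of the Sham-Ad lib means, with points for group means and lines from the lowest to the highest of 4 libraries. Creb3l3 and Gcgr lie above all other genes in each group, and Irs1 is the lowest in each, close to Irs2 in Sham-WM.

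At an adjusted p under 0.05 in edgeR's quasi-likelihood test over all 13054 genes, 1 of the 10 members changed in any comparison, and this was Irs1. Against Sham-Ad lib, 0 of 10 members passed after VSG, where 0.751% of all genes did, and 0 of 10 after Sham-WM, where 6.99% did. For VSG against Sham-WM, 1 of 10 passed, against 26.9% of all genes. At an unadjusted p under 0.05 the counts were 2, 4 and 4 members, against 24.1%, 21.6% and 40.4% of all genes. The values of the groups did not overlap for 0, 3 and 3 members in the same order of comparisons, against 9.21%, 17.6% and 26.2% of all genes. With 10 members, these shares lie close to those of all genes or below them, except for Sham-WM against Sham-Ad lib, where 4 members at an unadjusted p under 0.05 and 3 without overlap are more than the background share. The median log2 fold change of the members was -0.16, -0.14 and -0.15, where that of all genes was 0.028, 0.00079 and 0.028.

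**Figure D2:**
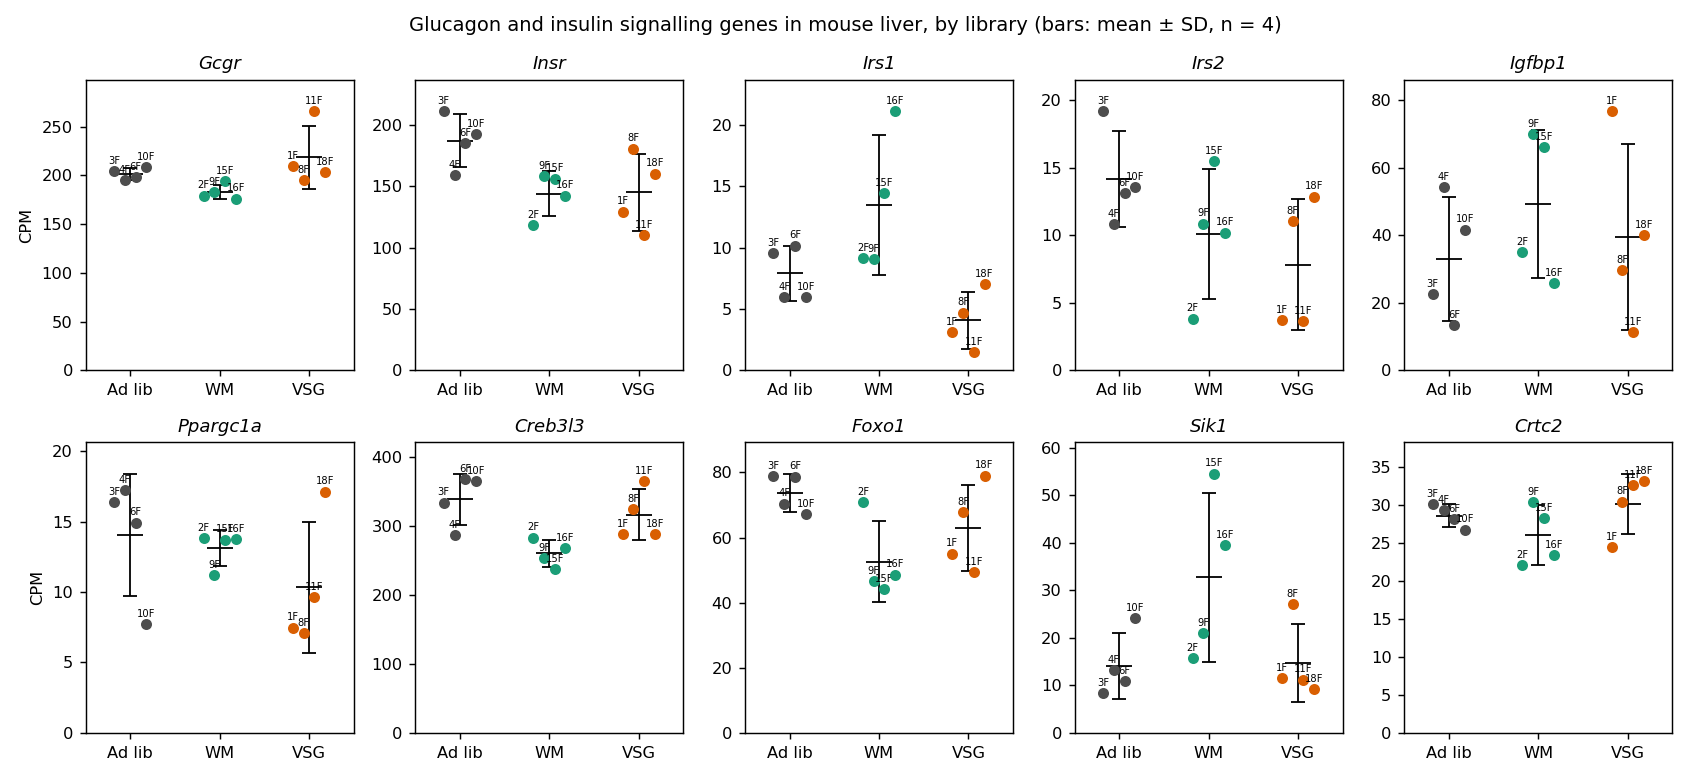
CPM of each of the 10 genes in the 12 libraries, with 1 point per mouse labelled by library and bars for the mean ± SD of 4 mice. Irs1 in VSG lies wholly below Sham-WM, Creb3l3 and Gcgr in Sham-WM lie wholly below both other groups, and Irs2 and Insr are low together in the VSG libraries 1F and 11F and the Sham-WM library 2F.

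IRS1 and IRS2 are the adaptors that pass the signal of the insulin receptor to PI 3-kinase. Irs1 (ENSMUSG00000055980, chromosome 1 from 82233101 to 82291416 on mm10, minus strand) had 9.54, 5.96, 10.2 and 5.96 CPM in the Sham-Ad lib libraries 3F, 4F, 6F and 10F. It had 9.17, 9.06, 14.4 and 21.2 CPM in the Sham-WM libraries 2F, 9F, 15F and 16F, and 3.11, 4.70, 1.51 and 7.00 CPM in the VSG libraries 1F, 8F, 11F and 18F. Every VSG library lay below every Sham-WM library, and the Sham-Ad lib libraries overlapped both groups. From Sham-WM to VSG, Irs1 fell by 1.70 on the log2 scale (standard error 0.39, adjusted p = 0.00829, edgeR), a level 3.25-fold lower after VSG. Against Sham-Ad lib neither treatment passed, with log2 fold changes of -0.94 after VSG (95% interval -1.79 to -0.09, adjusted p = 0.172) and 0.76 after Sham-WM (interval -0.05 to 1.58, adjusted p = 0.263).

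The lower level of Irs1 moved with the length trend of the libraries. Over the 12 libraries, which also share group and depth, its log2 CPM had a Pearson r of 0.904 with the library's rho along transcript length, and the count behind the lowest value, in 11F, was 20 reads. With the length trend removed, the log2 fold change of VSG against Sham-WM was -1.45 (adjusted p = 0.00732), and the call held in all 12 fits that left out 1 library (log2 fold changes from -2.09 to -1.40, adjusted p from 0.0033 to 0.0305). Without 1F and 11F together, which left only 8F and 18F in VSG, it was -1.22 and did not pass (adjusted p = 0.0608). With RUVs factors it was -0.43 (adjusted p = 0.419). The genes whose log2 CPM was most like Irs1 over the 12 libraries were Edem3, Pitpnb and Kpna6, with a Pearson r of 0.986, 0.985 and 0.984.

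Irs2 (ENSMUSG00000038894, chromosome 8 from 10984681 to 11008458, minus strand) is the form that FOXO1 and cAMP are both known to induce on fasting. It had 19.2, 10.8, 13.1 and 13.6 CPM in Sham-Ad lib (3F, 4F, 6F, 10F), 3.82, 10.9, 15.5 and 10.2 CPM in Sham-WM (2F, 9F, 15F, 16F), and 3.70, 11.0, 3.62 and 12.9 CPM in VSG (1F, 8F, 11F, 18F). Libraries 2F, 1F and 11F stood below 4 CPM and the other 9 lay above 10, so the spread lay within groups rather than between them. The log2 fold changes were -0.85 after VSG (interval -1.79 to 0.09), -0.49 after Sham-WM (-1.42 to 0.44) and -0.36 between the treatments (-1.30 to 0.59), with adjusted p-values of 0.251, 0.566 and 0.570. Single libraries moved these values: after VSG they ran from -1.19 without 18F to -0.61 without 1F, after Sham-WM from -0.77 without 15F to -0.22 without 2F, and between the treatments from -0.70 without 18F to -0.078 without 15F. Without 1F and 11F together, the value after VSG was -0.26. With the length trend removed, the 3 values were -0.73, -0.54 and -0.19 (adjusted p = 0.298, 0.427 and 0.745).

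The balance of the adaptors was lower in Sham-WM than in Sham-Ad lib. Per kilobase, the level of Irs2 was 2.91, 2.62, 1.86 and 3.29 times that of Irs1 in the Sham-Ad lib libraries, 0.603, 1.73, 1.55 and 0.696 times in Sham-WM, and 1.72, 3.40, 3.47 and 2.66 times in VSG. All Sham-WM ratios lay below all Sham-Ad lib ratios, and the highest of them, 1.73, lay just above the lowest of VSG, 1.72. These ratios were looked at after the levels were known and were not tested.

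Insr (ENSMUSG00000005534, chromosome 8 from 3122061 to 3279617, minus strand) had 212, 159, 185 and 193 CPM in Sham-Ad lib (3F, 4F, 6F, 10F) and 119, 158, 156 and 143 CPM in Sham-WM (2F, 9F, 15F, 16F). In VSG it had 129.5, 181, 110.2 and 160.5 CPM (1F, 8F, 11F, 18F). The Sham-WM libraries all lay below Sham-Ad lib, by a margin of 1 CPM at the nearest pair (158 and 159), and without 2F the log2 fold change was -0.30, while VSG overlapped both. The log2 fold change was -0.38 after Sham-WM (interval -0.72 to -0.04, adjusted p = 0.175) and -0.37 after VSG (interval -0.70 to -0.03, adjusted p = 0.179), and neither passed. With the length trend removed, Sham-WM against Sham-Ad lib was -0.44 and passed (adjusted p = 0.0223), and VSG against Sham-Ad lib was -0.14 (adjusted p = 0.465). Between VSG and Sham-WM the value was 0.013, and 0.30 with the length trend removed (adjusted p = 0.0594).

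Insr and Irs2 varied together from mouse to mouse. Over the 12 libraries their log2 CPM had a Pearson r of 0.894, the highest of the 45 pairs of members, and 0.899 after the group means were taken out. With the length trend removed, these values were 0.522 and 0.586, and the pair was no longer the highest: Insr with Creb3l3 (0.76), Creb3l3 with Foxo1 (0.635) and Irs2 with Crtc2 (0.574) lay above it. The most opposed pairs were Gcgr with Irs1 (r of -0.83, and -0.652 with the trend removed) and Igfbp1 with Creb3l3 (-0.722 and -0.622), and with the trend removed Foxo1 with Sik1 was more opposed than either (-0.803). These values describe 12 libraries that share groups and depth, and no test was made of them.

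**Figure D3:**
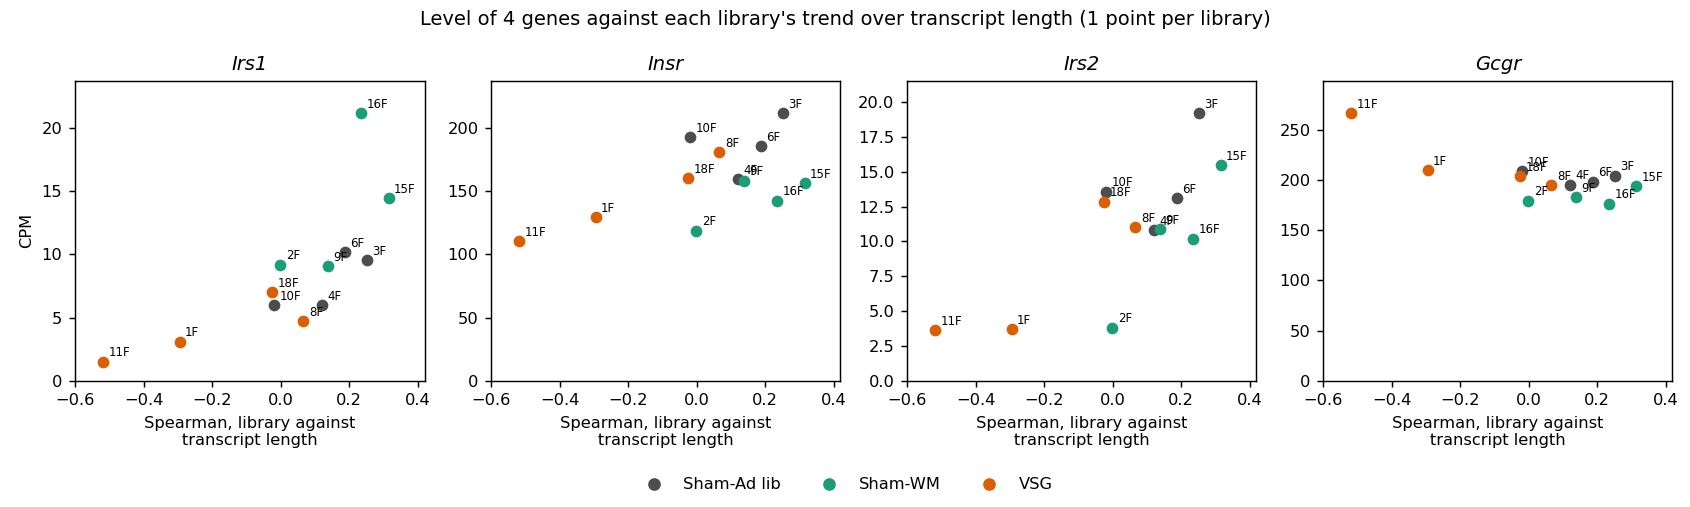
CPM of Irs1, Insr, Irs2 and Gcgr in each library against the Spearman rho between that library's departure from the mean and transcript length. Libraries 11F and 1F lie at the far left, at -0.519 and -0.295, with low Irs1, Insr and Irs2, and 11F has the highest Gcgr. The Sham-WM library 2F, at -0.000584, also has low Insr and Irs2.

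FOXO1 is the transcription factor that insulin keeps out of the nucleus. Foxo1 (ENSMUSG00000044167, chromosome 3 from 52268336 to 52353221, plus strand) had 78.8, 70.5, 78.7 and 67.3 CPM in Sham-Ad lib, 70.9, 46.5, 44.1 and 48.6 CPM in Sham-WM, and 55.1, 67.9, 49.5 and 79.1 CPM in VSG, with libraries in the order above. The Sham-WM libraries 9F, 15F and 16F lay below all other libraries, and 2F lay among the Sham-Ad lib values. The log2 fold change after Sham-WM was -0.49 (standard error 0.17, adjusted p = 0.103), and with the length trend removed it was -0.52 (adjusted p = 0.0604). It passed in 1 of the 12 fits that left out 1 library, at -0.67 without 2F (adjusted p = 0.0297), and was weakest at -0.41 without 15F (adjusted p = 0.27). VSG against Sham-WM was 0.26 (adjusted p = 0.269), and 0.50 with the length trend removed, which passed (adjusted p = 0.0352).

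Igfbp1 (ENSMUSG00000020429, chromosome 11 from 7197782 to 7202546, plus strand) encodes a secreted binding protein of insulin-like growth factors that insulin represses within hours. It varied widely within groups, with 22.6, 54.1, 13.3 and 41.7 CPM in Sham-Ad lib, 35.1, 69.9, 66.1 and 25.9 CPM in Sham-WM, and 76.8, 29.6, 11.2 and 40.0 CPM in VSG. The coefficient of variation was 55.9%, 44.8% and 70.1% across these groups, the highest of the 10 members in Sham-Ad lib and VSG, while Irs2 and Sik1 were more variable in Sham-WM. All 3 groups overlapped. Log2 fold changes were 0.26 after VSG (interval -0.87 to 1.39), 0.58 after Sham-WM (-0.55 to 1.71) and -0.32 between the treatments (-1.44 to 0.80), so that a difference of up to a few fold in either direction could not be seen at this spread. Its value after VSG turned to -0.28 without library 1F.

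On the glucagon side, the receptor itself was the steadiest member in both sham groups. Gcgr (ENSMUSG00000025127, chromosome 11 from 120530699 to 120538986, plus strand) had 204, 195, 198 and 209 CPM in Sham-Ad lib, 179, 183, 194 and 176 CPM in Sham-WM, and 209.7, 194.9, 266 and 204 CPM in VSG. The coefficient of variation was 3.05% in Sham-Ad lib and 4.18% in Sham-WM, and 14.8% in VSG, where Creb3l3 and Crtc2 were steadier. Every Sham-WM library lay below every library of the other groups. The log2 fold change was -0.14 after Sham-WM (interval -0.37 to 0.09, adjusted p = 0.507), 0.26 between VSG and Sham-WM (0.02 to 0.49, adjusted p = 0.0947) and 0.12 after VSG (-0.12 to 0.35, adjusted p = 0.525). Without 11F, which had the highest value, VSG against Sham-Ad lib was -0.0032. With the length trend removed, the values were -0.13 after Sham-WM, 0.16 between VSG and Sham-WM and 0.032 after VSG (adjusted p = 0.396, 0.188 and 0.868). Gcgr overlaps Gm11789 on the opposite strand, a gene with a mean of 399.8 counts against 3563 for Gcgr, but no exons of the pair overlap in GENCODE M21.

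Sik1 (ENSMUSG00000024042, chromosome 17 from 31844250 to 31855804, minus strand), the cAMP-induced brake on CRTC2, had the largest log2 fold change among the members after Sham-WM. It had 8.37, 13.1, 10.8 and 24.2 CPM in Sham-Ad lib, 15.7, 21.0, 54.5 and 39.5 CPM in Sham-WM, and 11.5, 27.0, 11.2 and 9.21 CPM in VSG. Libraries 15F and 16F were the highest of all 12, while 2F and 9F lay within the range of the other groups. The log2 fold change was 1.21 after Sham-WM (interval 0.27 to 2.16, adjusted p = 0.119) and -1.14 between VSG and Sham-WM (-2.09 to -0.20, adjusted p = 0.0683). In DESeq2 both passed (adjusted p = 0.0435 and 0.025), while without 15F edgeR gave 0.85 and -0.78 (adjusted p = 0.346 and 0.223).

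Crtc2 (ENSMUSG00000027936, chromosome 3 from 90254163 to 90264125, plus strand) lay between 22.2 and 33.2 CPM in all 12 libraries. Mean levels were 28.6 ± 1.49 CPM for Sham-Ad lib mice, 26.1 ± 3.95 for Sham-WM mice and 30.2 ± 3.98 for VSG mice (SD, n = 4), and all groups overlapped. The intervals of its log2 fold changes were -0.20 to 0.35 after VSG, -0.41 to 0.14 after Sham-WM and -0.06 to 0.48 between the treatments.

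Creb3l3 (ENSMUSG00000035041, chromosome 10 from 81084324 to 81098874, minus strand) encodes CREB-H, a membrane-bound factor of the endoplasmic reticulum that drives apolipoprotein and Fgf21 genes in fasting and also acute phase genes. It had 333, 287, 367 and 364 CPM in Sham-Ad lib, 283, 252, 237 and 267 CPM in Sham-WM, and 288, 324, 364 and 288 CPM in VSG. Every Sham-WM library lay below every library of both other groups. The log2 fold change was -0.38 after Sham-WM (standard error 0.12, adjusted p = 0.0771) and 0.28 between VSG and Sham-WM (standard error 0.12, adjusted p = 0.0964), and both missed the threshold. After Sham-WM it passed in DESeq2 (adjusted p = 0.015) and with the length trend removed (0.0458), but not with length and GC trends removed (0.0635). It passed in 1 of the 12 fits that left out 1 library (0.0395 without 11F, and up to 0.22 without 15F).

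Ppargc1a (ENSMUSG00000029167, chromosome 5 from 51454250 to 51567726, minus strand) encodes the coactivator PGC-1 alpha, a classical CREB target of the fasted liver. It had 16.4, 17.2, 14.9 and 7.72 CPM in Sham-Ad lib, 13.8, 11.2, 13.7 and 13.7 CPM in Sham-WM, and 7.47, 7.10, 9.64 and 17.1 CPM in VSG. Library 18F stood well above the other VSG libraries, and 10F well below the other Sham-Ad lib libraries. The log2 fold changes were -0.45 after VSG (interval -1.06 to 0.16), -0.10 after Sham-WM (-0.70 to 0.50) and -0.34 between the treatments (-0.95 to 0.26), and none passed. Without 18F, the value between the treatments was -0.71 and passed (adjusted p = 0.0412), and that after VSG was -0.81 (adjusted p = 0.0541). Without 10F, the values were -0.67 after VSG and -0.31 after Sham-WM, and neither passed. With the length trend removed, the 3 values were -0.28, -0.13 and -0.15 (adjusted p = 0.578, 0.817 and 0.705).

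**Figure D4:**
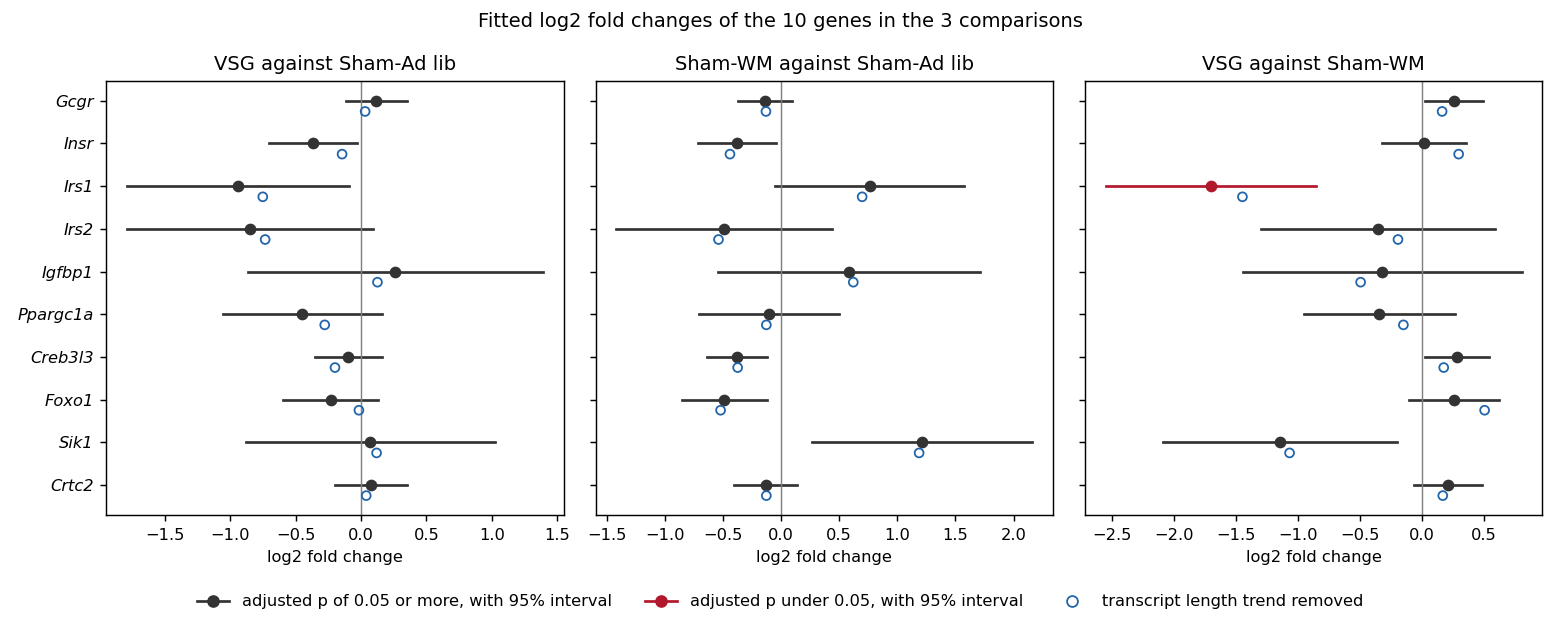
Fitted log2 fold change of the 10 genes in each of the 3 comparisons, with 95% intervals, and open circles for the value with the transcript length trend removed. The interval of Irs1 between VSG and Sham-WM is the only one in red (adjusted p under 0.05), and removing the trend moves Insr, Irs1 and Foxo1 up in both comparisons that involve VSG.

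The wider pathways and their targets were described by lists of genes with known roles. The lists share genes, among them G6pc, Pde4b and Crem, so their counts are not separate results. All comparisons of Sham-WM against Sham-Ad lib and of VSG against Sham-WM share the Sham-WM libraries, so that opposite values in these are not independent. List counts in other fits are to be read beside the number of all genes called there. After VSG, 98 of all genes passed in the main fit, 1202 in DESeq2, 3016 with RUVr factors, 628 with no filter and 6 with RUVs factors. After Sham-WM, 912 passed in the main fit and 1761 with RUVs factors. Between VSG and Sham-WM these were 3509 and 481. In the list from the glucagon receptor to CREB, 30 genes with 3 of the members, 0 passed after VSG, and 4 were higher and 2 lower after Sham-WM, where 3.53% and 3.45% of all genes were higher and lower. Between VSG and Sham-WM, 2 were higher and 12 lower after VSG, where 15.0% of all genes were higher and 11.9% lower. The count of 0 after VSG depended on the tool, with 1 higher and 6 lower in DESeq2, and 1 higher and 11 lower with RUVr factors. The median log2 fold changes of this list were -0.22, 0.20 and -0.41 in the 3 comparisons. After VSG, 0.467% of all genes had risen relative to Sham-Ad lib and 0.283% had fallen.

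After Sham-WM the largest rise in this list was that of Ppp1r3b, the subunit that directs protein phosphatase 1 to glycogen. Although listed, it is not itself a step from the receptor to CREB. Ppp1r3b had 159, 180.0, 240 and 167 CPM in Sham-Ad lib and 791, 739, 595 and 666 CPM in Sham-WM. On the log2 scale it rose by 1.90 (standard error 0.17, adjusted p = 4.92e-05), and between VSG and Sham-WM it was -2.42 (standard error 0.17, adjusted p = 6.39e-06), with 127, 137, 102 and 156 CPM in VSG. All VSG libraries lay below all Sham-Ad lib libraries, and these below all Sham-WM libraries. The cAMP phosphodiesterase Pde4b (log2 fold change 1.22, adjusted p = 0.00525) and the cAMP-responsive factor Crem (0.71, adjusted p = 0.0435) also rose after Sham-WM, Crem in only 4 of the 12 fits that left out 1 library. Adenylate cyclase 6 (Adcy6, -0.80, adjusted p = 0.0232) and the cAMP sensor Rapgef4 (-0.65, adjusted p = 0.00781) fell. Comparing VSG with Sham-WM, Pde4d (-1.12, adjusted p = 0.042) and the calcium channel of the endoplasmic reticulum Itpr1 (-0.84, adjusted p = 0.00532) were also lower, and Rapgef4 was higher (0.39, adjusted p = 0.0335).

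The count of 12 lower genes in the glucagon list between VSG and Sham-WM was 10 with the length trend removed, 7 in a fit of the 2 groups alone, 4 without libraries 1F and 11F, and 2 with RUVs factors. In single left-out fits it ranged from 5 to 13. Over all genes, the number called fell too, from 3509 to 481 with RUVs factors, and was also lower without 1F and 11F. Ppp1r3b and Itpr1 passed without 1F and 11F (adjusted p = 0.000309 and 0.0447), and Pde4d did not (adjusted p = 0.253). With RUVs factors, Itpr1, Pde4d and Rapgef4 did not pass (adjusted p = 0.241, 0.717 and 0.254).

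In the list from the insulin receptor to AKT and FOXO, 35 genes with 4 of the members, 0 passed after VSG and 3 were lower after Sham-WM. The share of the list that passed in the 3 comparisons was 0%, 8.57% and 28.6%, against 0.751%, 6.99% and 26.9% of all genes. After VSG, DESeq2 gave 3 lower, and RUVr factors 1 higher and 15 lower. After Sham-WM, RUVs factors gave 8 lower. The 3 genes were Trib3, an inhibitor of AKT (-1.93, adjusted p = 0.00259), Mtor, the growth kinase (-0.64, adjusted p = 0.0098), and the PI 3-kinase subunit Pik3r2 (-0.34, adjusted p = 0.0382). When VSG was set against Sham-WM, 2 were higher, Trib3 (1.89, adjusted p = 0.00136) and Pik3r2 (0.41, adjusted p = 0.00661), and 8 lower, among them Irs1, Pik3r3 (-1.07, adjusted p = 0.0333) and the insulin-degrading enzyme Ide (-0.71, adjusted p = 0.0323). Trib3 had 9.15, 7.94, 10.5 and 4.52 CPM in Sham-Ad lib, 2.55, 2.97, 1.275 and 1.63 CPM in Sham-WM, and 7.83, 6.54, 7.08 and 9.95 CPM in VSG, with no overlap of Sham-WM with either group. The split of this list between VSG and Sham-WM turned on the length trend: with it removed, 5 were higher and 4 lower, and without 1F and 11F, 3 were higher and 0 lower. With RUVs factors, 1 was higher and 0 lower, and Pik3r2, Pik3r3 and Ide did not pass (adjusted p = 0.0561, 0.523 and 0.759). The medians of this list were -0.27, -0.056 and -0.21.

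Among 15 FOXO1 targets, 4 of them members, 3 rose after Sham-WM and 0 fell, where 3.53% and 3.45% of all genes did. Between VSG and Sham-WM, 5 were lower and 0 higher after VSG, where 11.9% of all genes were lower and 15.0% higher. In both directions together, 20% and 33.3% of the list passed in these comparisons, against 6.99% and 26.9% of all genes. G6pc, the enzyme that releases glucose from the liver, had 149.8, 87.0, 144 and 126 CPM in Sham-Ad lib, 385, 227, 642 and 957 CPM in Sham-WM, and 88.8, 20.1, 44.7 and 89.9 CPM in VSG. Sham-WM lay above both other groups in every library, and VSG overlapped Sham-Ad lib. The log2 fold change of G6pc was 2.13 after Sham-WM (standard error 0.47, adjusted p = 0.017), -3.18 between VSG and Sham-WM (standard error 0.49, adjusted p = 0.00126) and -1.06 after VSG (adjusted p = 0.185). Pdk4, which shuts off pyruvate oxidation, had a log2 fold change of 1.65 after Sham-WM (adjusted p = 0.00181) and -2.30 between VSG and Sham-WM (adjusted p = 0.000148). Angptl8, the insulin-induced regulator of lipoprotein lipase, had one of 1.39 after Sham-WM (adjusted p = 0.00504) and -1.71 between VSG and Sham-WM (adjusted p = 0.000888). Insulin induces Angptl8 but drives FOXO1 out of the nucleus. The counts of this list therefore do not stand for 1 direction of FOXO1 activity. The Sham-WM libraries of Pdk4 and Angptl8 overlapped neither group. G6pc did not pass after Sham-WM without 10F or without 16F. The count of 5 lower genes between VSG and Sham-WM was 4 both with the length trend removed and without 1F and 11F, and 2 with RUVs factors, where G6pc was at -2.43 and did not pass (adjusted p = 0.124).

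**Figure D5:**
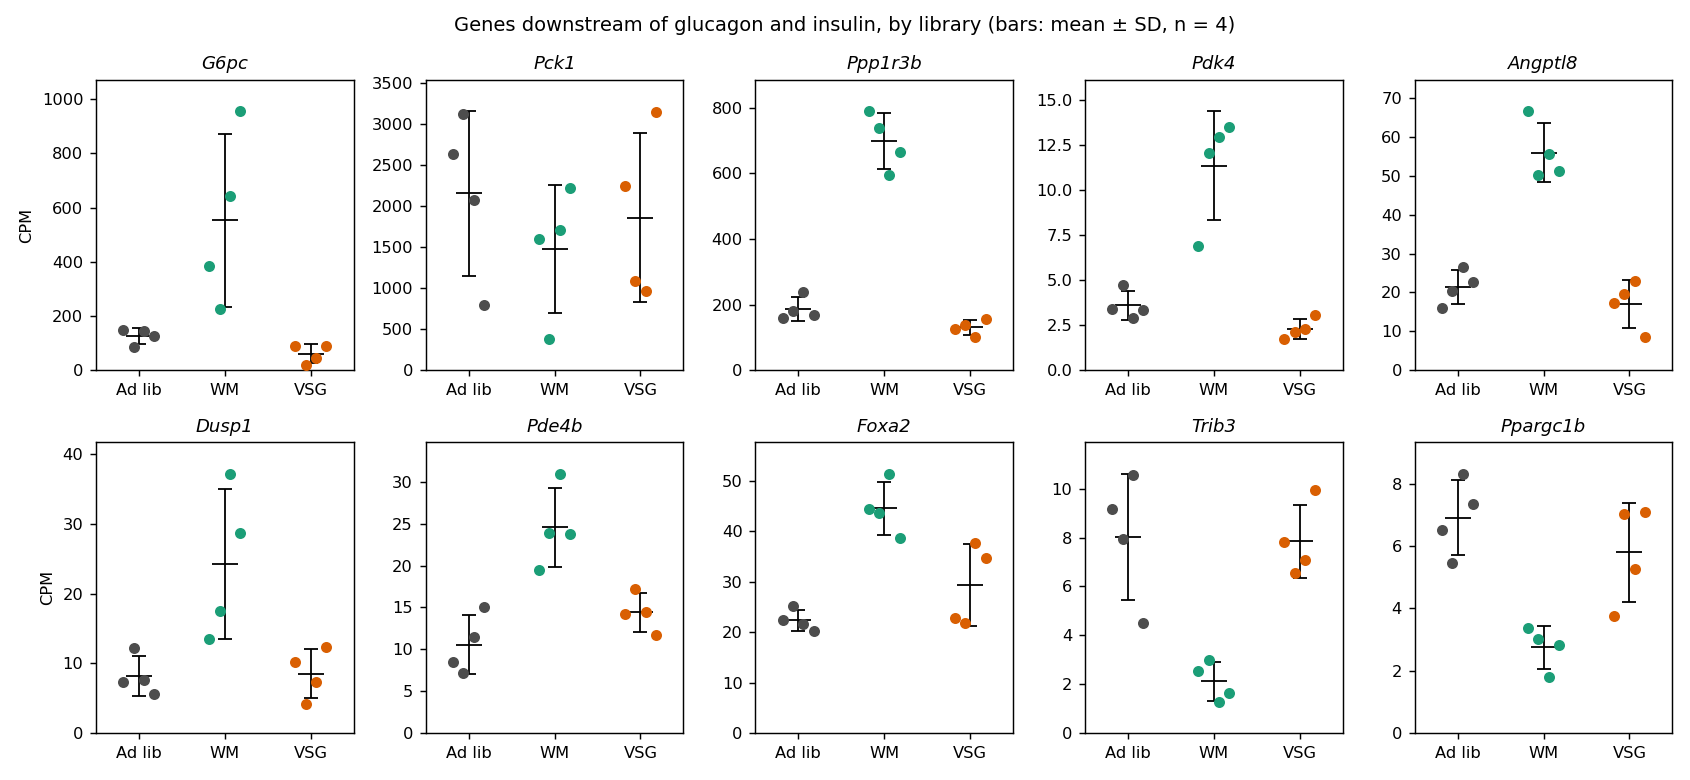
CPM of 10 target and pathway genes in the 12 libraries, with 1 point per mouse and bars for the mean ± SD of 4. G6pc, Ppp1r3b, Pdk4, Angptl8, Pde4b and Foxa2 lie higher in Sham-WM than in Sham-Ad lib without overlap, Trib3 and Ppargc1b lower, and Pck1 overlaps in all groups.

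Pck1, the other textbook gene of gluconeogenesis, passed in no comparison. It had 2640, 3126, 2070 and 799 CPM in Sham-Ad lib, 1594, 383, 1712 and 2225 CPM in Sham-WM, and 2245, 1087, 966 and 3146 CPM in VSG. All groups overlapped, and the log2 fold changes of -0.21, -0.55 and 0.33 did not pass (adjusted p = 0.827, 0.603 and 0.661).

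Among 17 cAMP and CREB targets, of which 16 could be tested and 3 are members, 4 rose after Sham-WM: G6pc, Pde4b, Crem and the immediate early phosphatase Dusp1 (1.56, adjusted p = 0.0211). Pde4b and Crem are also in the glucagon list, and G6pc is also among the FOXO1 targets. Of the genes tested, 25% passed after Sham-WM and 31.2% between VSG and Sham-WM, against 6.99% and 26.9% of all genes. Between VSG and Sham-WM, 5 were lower after VSG, among them Dusp1 (-1.51, adjusted p = 0.00996). The lower count was 5 with the length trend removed and 1 without 1F and 11F, where Dusp1 was at -1.57 (adjusted p = 0.0601). With RUVs factors it was 0, and Dusp1 was at -1.13 (adjusted p = 0.319). After VSG, where 0 of these targets passed, DESeq2 gave 2 lower and RUVr factors 3 lower.

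Creb3l3 has its own targets, and of 12 listed, 4 fell after Sham-WM: the lipid droplet protein Cidec (-2.39, adjusted p = 0.0201), the apolipoprotein Apoa4 (-1.15, adjusted p = 0.0133), the carnitine transferase Cpt1a (-0.75, adjusted p = 0.0205) and the fat storage protein Fitm2 (-0.67, adjusted p = 0.0124). None passed as higher. Apoa5, also listed, lay higher in Sham-WM without overlap. It had 1369, 1023, 1273 and 921 CPM in Sham-Ad lib and 1699, 1390, 1582 and 1670 CPM in Sham-WM. After VSG, 1 of the 12 fell, Fitm2 (-0.77, adjusted p = 0.0435), from 84.2, 55.1, 90.0 and 81.3 CPM in Sham-Ad lib to 39.8, 46.5, 45.6 and 49.5 CPM. Without 1F and 11F, Fitm2 was at -0.71 (adjusted p = 0.281), and its fall after VSG did not pass in 8 of the 12 fits that left out 1 library. The count for this list after VSG depended on the tool: DESeq2 and RUVr factors each gave 7 lower and 1 higher, no filter 5 lower and 1 higher, and RUVs factors 0. Fitm2 in VSG overlapped Sham-WM, at 51.2, 50.7, 43.3 and 49.7 CPM. Of the same list, the acute phase gene Apcs was higher in VSG than in Sham-WM (2.09, adjusted p = 0.00772, and 0.099 without 1F and 11F) and Apoa5, an activator of lipoprotein lipase, lower (-0.82, adjusted p = 0.0029). With RUVs factors neither passed, at -0.14 for Apcs and -0.51 for Apoa5 (adjusted p = 0.903 and 0.19). The medians of this list were -0.64, -0.52 and -0.077. In edgeR without RUVs or RUVr factors, 8.33%, 33.3% and 16.7% of the list passed in the 3 comparisons, against 0.751%, 6.99% and 26.9% of all genes.

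Of 12 partners of PGC-1 alpha in the table, 13 having been listed, the paralog Ppargc1b fell after Sham-WM (-1.33, adjusted p = 0.00701) and the liver factor Foxa2 rose (1.00, adjusted p = 0.00476). Between VSG and Sham-WM, Ppargc1b was higher (1.08, adjusted p = 0.00769) and Foxa2 (-0.61, adjusted p = 0.0204) and the acetyltransferase Kat2a (-0.27, adjusted p = 0.0466) were lower. The share of this list that passed was 16.7% after Sham-WM and 25% between VSG and Sham-WM, against 6.99% and 26.9% of all genes. Kat2a passed in none of the 12 fits with 1 library left out, and with RUVs factors neither Foxa2 nor Kat2a passed (adjusted p = 0.281 and 0.314). None of 9 genes for insulin-like growth factor 1 and its binding proteins, Igfbp1 included, passed in any comparison in edgeR, while DESeq2 gave 1 higher between VSG and Sham-WM.

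Other features of these livers moved with the groups. The clock gene Arntl was 4.68 higher on the log2 scale in Sham-WM than in Sham-Ad lib (adjusted p = 4.42e-05) and the clock output gene Dbp fell by 3.35 (adjusted p = 4.42e-05), while neither passed between VSG and Sham-Ad lib. G6pc, Ppp1r3b and Pdk4 rose in the same Sham-WM group, and the part of the clock genes in that was not tested. Of 5 acute phase genes, all 5 were higher in VSG than in Sham-WM, and their summed level was 3146 to 20770 CPM in Sham-Ad lib, 2323 to 3913 in Sham-WM and 5198 to 48940 in VSG. All 5 Kupffer cell markers were also higher between VSG and Sham-WM, with summed levels of 107.4 to 318, 98.6 to 174 and 356 to 857 CPM, and summed neutrophil markers reached 617 CPM in VSG against 10.3 and 1.94 in the sham groups, with Ly6g at 0 in both of these. Markers of B and plasma cells (3 of 5) and of T and NK cells (all 3 that could be tested, of 5 listed) were also higher in VSG than in Sham-WM. Summed stellate cell markers were lower in VSG without overlap, at 61.2 to 112.8 CPM against 119 to 146 in Sham-Ad lib and 127 to 163 in Sham-WM. Lrat (-1.33, adjusted p = 0.00174) and Reln (-1.06, adjusted p = 0.00804) were lower in VSG than in Sham-WM. Des (-0.52), Pdgfrb (-0.13) and Colec11 (0.051) did not pass there (adjusted p = 0.109, 0.72 and 0.80). Lrat had also risen from Sham-Ad lib to Sham-WM (0.82, adjusted p = 0.0384). Hepatocyte markers summed to 95460 to 112500, 112000 to 138500 and 69680 to 112000 CPM. Most of this sum was Alb, with a mean of 84800 CPM of 105100 in Sham-Ad lib. Of the 5 markers, only Alb passed between VSG and Sham-WM, where it was lower (-0.73, adjusted p = 0.0294). Apoa1 (0.16), Ttr (-0.13), Ass1 (-0.44) and Hnf4a (-0.18) did not pass (adjusted p = 0.65, 0.64, 0.17 and 0.48). In bulk tissue, fewer cells of a type and less RNA per cell cannot be told apart, and the part of these cells in the members' values was not tested.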

How the data were processed

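Liver poly(A) RNA of 12 mice was sequenced as paired reads from directional libraries. The authors aligned reads to mm10 with TopHat2 2.1.1, counted them on genes with featureCounts and deposited raw counts without normalization. The annotation release and the strand setting of the counting are not given in the sources used here. Symbols, positions and lengths came from GENCODE M21, which matched 45229 of the 46078 genes. Groups were fitted to all 12 libraries with edgeR 4.0.16 (R 4.3.3): TMM factors, filterByExpr at its default limits (10 counts, 15 in total), the quasi-likelihood test, and Benjamini-Hochberg adjustment over 13054 genes with a threshold of 0.05. Log2 CPM used a prior count of 2. P-values set the difference between groups against the spread among libraries, each from a different mouse. Spread between mice and spread from library preparation are not separated. The study tested with DESeq2 and RUVSeq (k = 2). DESeq2 1.42.0 was run as an alternative, and RUVs and RUVr factors were written out from their definitions, since the package was not installed. Other alternatives were upper quartile factors, other filters, fits of 2 groups, the second label field, and each library left out in turn. Removal of length and GC trends within each library and the fit without libraries 1F and 11F were added after the data were seen. That fit kept only 8F and 18F in VSG, so its comparisons with VSG rest on fewer mice. The script was tested on simulated counts. The members, the gene lists and the tests were chosen with earlier results of these data known. Besides the members, Pck1 and G6pc, genes were named from each list by the rule of up to 3 higher and 3 lower per comparison, taken in order of fold change from the called genes whose log2 CPM averaged 1 or more. Fitm2 after Sham-WM was named outside this rule, after its values were seen, to complete a count of 4. For the called member the 3 genes most like it are named. Reads carry no molecular identifiers, so copies made by amplification were not told apart in the counts. RefSeq sequences for Insr, Sik1 and Crtc2 were not used here.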

Additional observations from a re-analysis of the deposited data

Results flagged for a closer look

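In 30 groups of 4 libraries (10 genes in 3 groups), 3 held a library whose distance from its neighbour took up more of the group's range than Dixon's critical value for 4 samples. Chance flags about 1 group in 20. Ppargc1a in Sham-WM had a ratio of 0.966, with library 9F at 11.2 CPM and the other 3 between 13.7 and 13.8. Foxo1 in Sham-WM had a ratio of 0.832, with 2F at 70.9 CPM and the others between 44.1 and 48.6. Sik1 in VSG had a ratio of 0.873, with 8F at 27.0 CPM and the others between 9.21 and 11.5.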

How the results depend on the processing

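No paired analysis was possible because the animal numbers in the labels differ between groups, so that no number is shared. The S numbers in the column names and treatment cannot be told apart, and 4 mice a group leave intervals of the noisier members more than 1 log2 unit wide. Causes of the shifts below were not tested.

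Genes called were 98 in VSG against Sham-Ad lib, 912 in Sham-WM against Sham-Ad lib and 3509 in VSG against Sham-WM. In VSG against Sham-Ad lib, DESeq2 gave 1202, no filter 628, at least 10 counts in every library 0 (2755 at an unadjusted p under 0.05), a fit of 2 groups 0 (2523), RUVs 6, RUVr 3016, the description field 0 (465), length removed 59, length and GC removed 170, and leaving out 1F and 11F 0 (1406). In Sham-WM against Sham-Ad lib, DESeq2 gave 1445, a fit of 2 groups 1399, RUVs 1761, RUVr 2190, the description field 0 (715) and leaving out 1F and 11F 1415. In VSG against Sham-WM, RUVs gave 481, RUVr 5492, the description field 0 (158) and leaving out 1F and 11F 1618. Without single libraries, genes called ranged from 0 to 1089, 424 to 1311 and 2196 to 3868, and members called from 0 to 0, 0 to 1 and 1 to 2.

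Members called in VSG against Sham-Ad lib were 3 with RUVr (Insr, Irs1, Irs2). In Sham-WM against Sham-Ad lib they were 2 in DESeq2 (Creb3l3, Sik1), 1 in a fit of 2 groups (Creb3l3), 3 with RUVs (Insr, Creb3l3, Foxo1), 3 with RUVr (Insr, Irs1, Creb3l3), 2 with length removed (Insr, Creb3l3) and 1 with length and GC removed (Insr). In VSG against Sham-WM they were 2 in DESeq2 and 2 with no filter (Irs1, Sik1), 0 with RUVs, 3 with RUVr (Gcgr, Irs1, Creb3l3), 0 by the description field, 2 with length removed (Irs1, Foxo1), 3 with length and GC removed (Insr, Irs1, Foxo1) and 0 without 1F and 11F.

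Some log2 fold changes turned sign. Insr in VSG against Sham-WM was -0.0010 in DESeq2, -0.0026 with no filter and -0.0062 with RUVr. With RUVs, VSG against Sham-Ad lib gave Irs2 0.0017, Igfbp1 -0.46, Ppargc1a 0.0056, Sik1 -0.14 and Pck1 0.32, and VSG against Sham-WM gave Irs2 0.89, Ppargc1a 0.26 and Apcs -0.14. Without 1F and 11F, Gcgr in VSG against Sham-Ad lib was -0.028 and Irs2 in VSG against Sham-WM 0.23. Without single libraries, VSG against Sham-Ad lib ranged from -0.44 to 0.44 for Sik1, -0.59 to 0.018 for Pck1, -0.28 to 0.61 for Igfbp1 and -0.0032 to 0.15 for Gcgr, VSG against Sham-WM from -0.12 to 0.13 for Insr and -0.049 to 0.59 for Pck1, and Sham-WM against Sham-Ad lib from -0.31 to 0.0087 for Ppargc1a.

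By the description field, VSG against Sham-Ad lib gave Gcgr -0.085, Insr 0.043, Ppargc1a 0.29, Foxo1 0.44, Sik1 -1.53, Crtc2 -0.014, Fitm2 0.032 and Pck1 0.76. Sham-WM against Sham-Ad lib gave Insr 0.18, Irs1 -0.53, Irs2 0.091, Ppargc1a 0.17, Foxo1 0.33, Sik1 -0.85, Crtc2 0.093, Adcy6 0.51, Angptl8 -0.39, Apoa4 0.35, Cidec 2.15, Cpt1a 0.51, Crem -0.17, Dusp1 -0.93, Foxa2 -0.40, G6pc -1.89, Mtor 0.34, Pck1 0.23, Pde4b -0.50, Pdk4 -0.56, Pik3r2 0.086, Ppargc1b 0.48, Ppp1r3b -0.24, Rapgef4 0.21 and Trib3 0.96. VSG against Sham-WM gave Insr -0.14, Igfbp1 0.063, Ppargc1a 0.12, Creb3l3 -0.047, Crtc2 -0.11, Apoa5 0.026, Dusp1 0.064, Foxa2 0.15, G6pc 0.58, Ide 0.22, Kat2a 0.074, Pik3r3 0.56 and Ppargc1b -0.20.

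Of the named calls after Sham-WM, single left-out libraries ended those of Adcy6 (3F, 6F, 2F, 9F or 15F), Apoa4 (16F), Cidec (4F, 9F, 15F or 16F), Cpt1a (3F, 6F, 15F or 16F), Crem (3F, 6F, 10F, 2F, 15F, 16F, 1F or 8F), Dusp1 (3F, 6F, 10F, 15F or 16F) and Pik3r2 (all but 15F and the VSG libraries). Between VSG and Sham-WM they ended those of Foxa2 (15F or 1F), Ide (15F, 16F, 8F or 11F), Pde4d (6F, 9F, 15F, 16F, 1F, 8F or 11F), Pik3r3 (2F, 16F, 8F or 11F) and Rapgef4 (10F, 9F, 15F, 16F, 1F, 8F or 18F).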
